A study of Mus musculus with 8 samples.

Results

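The FOXO family and its quiescence targets were followed here as 9 genes, Foxo1, Foxo3, Foxo4, Txnip, Pik3ip1, Klf2, Klf6, Irs2 and Sesn3, taken by gene symbol from a table of 22065 named genes. All 9 were in the table and all 9 were abundant enough to be tested. The data were read counts per gene from sorted bone marrow hematopoietic stem cells (HSCs) of C57BL/6 mice labelled 8 to 10 weeks old, with 100 cells in each library and 4 libraries in each of 2 groups. Mice of both groups carried floxed Mitol alleles (Mitol Flox/Flox) and received Poly:IC, a double-stranded RNA mimic that induces interferon, and HSCs were taken 1 week later. Mitol KO mice also carried the MX1-cre transgene, whose promoter answers to interferon, so that the gene for MITOL, an E3 ubiquitin ligase of the mitochondrial outer membrane, was deleted in hematopoietic and other interferon-responsive cells. Control mice were littermates without MX1-cre. The labels do not say whether the 4 libraries of a group came from separate mice, so p-values measure the spread between these libraries, which may be technical.

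FOXO proteins are forkhead transcription factors that enter the nucleus when signalling through PI3K and AKT is low and leave it when AKT phosphorylates them. In HSCs they are known for keeping cells out of the cell cycle and for limiting oxidative damage, with Foxo3 as the best studied member. Among genes commonly placed downstream of FOXO proteins, Txnip restrains glucose uptake and thioredoxin, Pik3ip1 blocks PI3K, Sesn3 restrains the growth kinase mTORC1, Irs2 links insulin and IGF1 receptors to PI3K, and Klf2 and Klf6 are zinc finger transcription factors.

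Counts on named genes summed to between 9212488 and 12398138 in Mitol KO libraries and to between 7214935 and 9906457 in Control libraries. The deleted gene is listed as Marchf5, with 274.5 ± 31.8 normalized counts in Mitol KO and 301.7 ± 29.9 in Control libraries (SD, n = 4). Its log2 fold change was -0.15 (95% interval -0.44 to 0.14, edgeR adjusted p = 0.498) and the groups overlapped, so its counts show no clear loss. A count over a whole gene cannot separate deleted from remaining exons. All 12 HSC markers checked were present in the table. Their summed normalized counts were 31143 to 35885 in Mitol KO and 43849 to 51041 in Control libraries, and 3 of the 12, Kit and Hlf among them, were lower by edgeR's test. Of the markers of other blood, stromal and endothelial cells, Hbb-bt was higher and Pf4 was lower. Summed normalized counts of red cell markers were 1055 to 4918 in Mitol KO and 444.5 to 907.3 in Control libraries, and those of macrophage markers 356.6 to 491.5 and 201.2 to 345.5, so that both sums were higher in all 4 Mitol KO libraries. Neutrophil marker sums were 485.3 to 1023 in Mitol KO and 405.1 to 615.9 in Control libraries, and megakaryocyte marker sums were 450.04 to 1761 and 842.7 to 938.4, with the groups overlapping. Marker sums of mast cells and basophils, of T cells, of the B lineage and of stroma and endothelium also overlapped between the groups. The part of these cells in the values below was not tested. In RNA pooled from 100 cells, fewer cells that express a gene and less of its RNA per cell cannot be told apart.

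The promoters of Txnip and Klf6 are shown because these genes had the lowest log2 fold changes of the 9. On GRCm39, with transcript starts from GENCODE, windows from 250 bases before to 50 bases after the start were searched on both strands for the FOXO motif GTAAACA, its core AAACA, the insulin response sequence CAAAACA and the E-box CACGTG. The 250 bases before each start are printed 5′ to 3′, with the motif match in capitals.
Txnip, chr3:96465017-96465266, plus strand: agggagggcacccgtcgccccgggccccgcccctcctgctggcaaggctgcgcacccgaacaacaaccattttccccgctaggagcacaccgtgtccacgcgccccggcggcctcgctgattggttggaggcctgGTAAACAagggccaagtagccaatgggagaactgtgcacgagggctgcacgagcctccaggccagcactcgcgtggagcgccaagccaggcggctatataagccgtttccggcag
Klf6, chr13:5911231-5911480, plus strand: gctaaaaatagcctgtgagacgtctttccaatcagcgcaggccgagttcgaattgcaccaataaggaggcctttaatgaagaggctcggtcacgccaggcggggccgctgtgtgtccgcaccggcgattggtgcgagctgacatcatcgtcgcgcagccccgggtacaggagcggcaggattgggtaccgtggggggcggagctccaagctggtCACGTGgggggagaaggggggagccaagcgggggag
In the Txnip promoter, GTAAACA began 115 bases before the start, and Txnip was the 1 gene of the 9 whose window held it. This motif was present in 3.15% of 21735 protein-coding promoters. The Klf6 window held an E-box that began 36 bases before the start, as did 7.81% of all promoters. Foxo4 alone held CAAAACA, which was in 6.71% of all promoters. With RefSeq's windows of the same length on GRCm38.p6, which lack Foxo4, the window of Irs2 held CAAAACA (and with it the core) and an E-box, so the genes with a match depend on the transcript start used. The core AAACA was in the windows of Foxo1, Foxo4, Txnip and Pik3ip1, and it was also in 10868 of the 21735 windows. A match of letters is a description of the window and does not show that a factor binds there.

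Of the 9 genes, only Klf6 was past the threshold, an adjusted p under 0.05 in the quasi-likelihood F-test of edgeR after Benjamini-Hochberg correction over 16444 genes, and it fell. Over all genes tested, 8.43% were past it, and 3.75% were past it and lower in Mitol KO HSCs. The log2 fold change was below 0 for 6 of the 9 genes, where 52.3% of all tested genes were below 0. The median over the 9 genes was -0.28, and that over all tested genes was -0.02. An unadjusted p under 0.05 was found for Foxo3, Txnip, Klf6 and Sesn3, 4 of the 9, where it was found for 26.4% of all genes tested. In 0 of the 9 genes were the normalized counts of the groups fully separate, where 15.4% of all tested genes were, 7.18% with Mitol KO lower and 8.17% with Mitol KO higher.

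**Figure D1:**
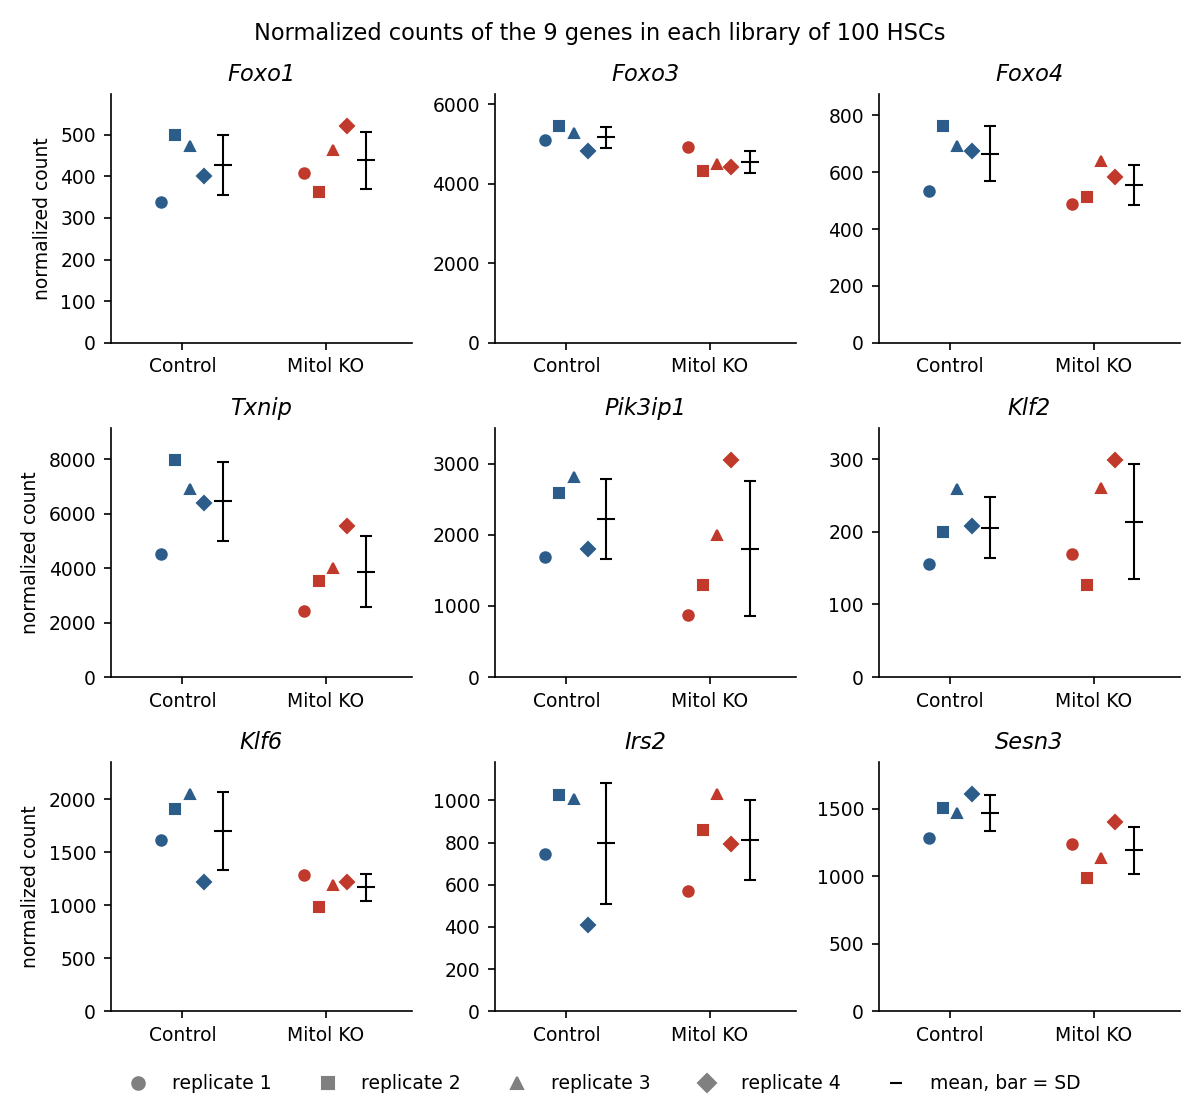
Normalized counts (counts divided by size factors, y axis from 0, its own scale in each panel) of the 9 genes in the 4 Control (blue) and 4 Mitol KO (red) libraries, with each library as a symbol by replicate number and the mean with SD beside it. The groups overlap in all 9 panels, and for Foxo3, Txnip and Sesn3, 3 of the 4 Mitol KO libraries lie below every Control library.

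Foxo3, the most abundant FOXO mRNA, lies on chromosome 10 from 42057837 to 42154007, minus strand, of GRCm39. Its normalized counts were 4940, 4331, 4504 and 4434 in Mitol KO replicates 1 to 4 and 5093, 5456, 5287 and 4835 in Control replicates 1 to 4. In Mitol KO replicate 1 the count was above that of Control replicate 4, and the other 3 Mitol KO libraries were below every Control library. The mean was 4552 ± 268 in Mitol KO and 5168 ± 267 in Control HSCs (SD, n = 4). This corresponds to a log2 fold change of -0.20 (standard error, SE, 0.0765, 95% interval -0.37 to -0.03, edgeR adjusted p = 0.119). A 2-sided exact permutation test of the normalized counts gave p = 0.0571, where the smallest p that 4 against 4 libraries allow is 0.0286. The interval lay below 0, and the adjusted p was not past the threshold.

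Foxo4, the X-linked member of the family, from 100298073 to 100304479 on the plus strand, had 486.8, 511.3, 639.9 and 584.0 normalized counts in Mitol KO replicates 1 to 4. In Control replicates 1 to 4 it had 534.1, 761.9, 691.4 and 673.5. Control replicate 1 lay among the Mitol KO libraries, and the other 3 Control libraries were above all of them. The log2 fold change was -0.28 (SE 0.13, 95% interval -0.56 to 0.01, edgeR adjusted p = 0.199; exact permutation test, p = 0.114).

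Foxo1, on chromosome 3 from 52175757 to 52260642, plus strand, had 407.0, 362.7, 464.1 and 520.5 normalized counts in Mitol KO replicates 1 to 4. The Control replicates 1 to 4 had 337.6, 498.0, 471.9 and 401.4. The 2 ranges covered each other almost fully. With a log2 fold change of 0.02 (SE 0.15, edgeR adjusted p = 0.957; exact permutation test, p = 0.83), its 95% interval ran from -0.31 to 0.35. The sign of this value turned to -0.040 when library totals were used without TMM scaling. Foxo6 was not analysed here.

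Set per exon length, Foxo3 made up most of the FOXO mRNA in both groups. Its share of the summed level of the 3 factors was 70.8% ± 3.17 in Mitol KO HSCs and 70.7% ± 2.74 in Control HSCs (SD, n = 4, 2-sided exact permutation test, p = 0.971). Foxo4 held 22.5% ± 2.52 in Mitol KO and 23.6% ± 2.20 in Control HSCs (exact permutation test, p = 0.571). The share of Foxo1 was 6.77% ± 0.928 in Mitol KO and 5.78% ± 0.616 in Control HSCs (exact permutation test, p = 0.171). None of these 3 shares differed beyond the spread between libraries.

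Txnip had the largest fold change of the 9 genes. Its product, an alpha-arrestin, binds thioredoxin and lowers glucose transporters at the cell surface. The gene lies on chromosome 3 from 96465267 to 96469201, plus strand. Normalized counts were 2412, 3514, 4004 and 5546 in Mitol KO replicates 1 to 4 and 4531, 7973, 6922 and 6406 in Control replicates 1 to 4. The groups overlapped through Mitol KO replicate 4, the highest of its group, and Control replicate 1, the lowest of its group. The mean was 3869 ± 1301 in Mitol KO and 6458 ± 1440 in Control HSCs (SD, n = 4), a change of -40.1%. The log2 fold change was -0.76 (SE 0.22, 95% interval -1.24 to -0.28), and with an edgeR adjusted p of 0.0545 (exact permutation test, p = 0.0571) it was just outside the threshold. DESeq2, the tool of the study, gave -0.75 with an adjusted p of 0.00918. On simulated counts with 200 of 16116 genes changed, 19.1% of DESeq2's calls and 6.29% of edgeR's were false. Such shares depend on how many genes change, so they do not carry over to the calls here. Over 8 settings with all libraries the adjusted p of Txnip ran from 0.00918 to 0.0567 and was past the threshold in 4. It was also past the threshold in edgeR without Control replicate 1 (-0.88, adjusted p = 0.0349) and without Mitol KO replicate 4 (-0.96, adjusted p = 0.00713). In the other 6 fits that left out a library it was not past the threshold, with adjusted p from 0.105 without Mitol KO replicate 3 to 0.149 without Control replicate 2.

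**Figure D2:**
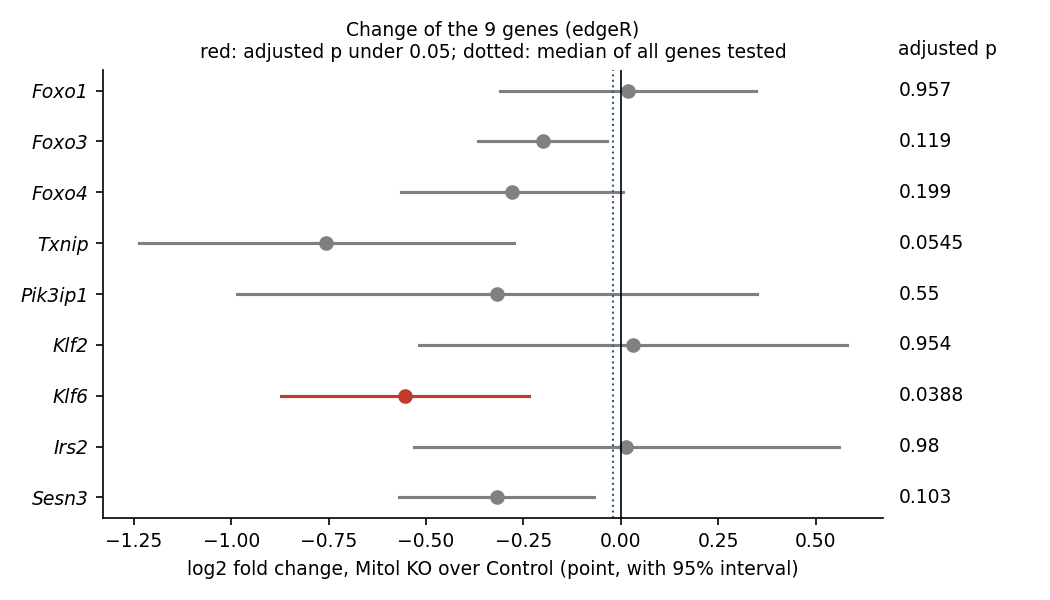
Log2 fold change of the 9 genes, Mitol KO over Control (x axis), as points with 95% intervals from edgeR and the adjusted p at the right, where the dotted line is the median of all genes tested. Klf6 (red) is the gene past the threshold at -0.55, and Txnip lies lowest at -0.76 with a wider interval.

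Klf6 fell in Mitol KO HSCs. It encodes a zinc finger transcription factor and lies on chromosome 13 from 5911481 to 5920393, plus strand. Its normalized counts were 1285, 983.0, 1189 and 1217 in Mitol KO replicates 1 to 4 and 1617, 1907, 2044 and 1215 in Control replicates 1 to 4. Control replicate 4 lay within the Mitol KO range, and the other 3 Control libraries were above it. The mean was 1169 ± 130 in Mitol KO and 1696 ± 367 in Control HSCs (SD, n = 4), a change of -31.1%. The log2 fold change was -0.55 (SE 0.15, 95% interval -0.87 to -0.24, edgeR adjusted p = 0.0388), with 2 of 4 Mitol KO libraries below every Control library, and the exact permutation test gave p = 0.0857.

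The call of Klf6 was close to the threshold and was lost in 6 of the 8 fits that left out a library. It was kept in edgeR without Control replicate 4 (-0.68, adjusted p = 0.0175) and without Mitol KO replicate 4 (-0.55, adjusted p = 0.0351). It was lost without Control replicate 1 (-0.56, adjusted p = 0.0599), Control replicate 2 (-0.49, adjusted p = 0.114), Control replicate 3 (-0.45, adjusted p = 0.103), Mitol KO replicate 1 (-0.60, adjusted p = 0.0671), Mitol KO replicate 2 (-0.47, adjusted p = 0.108) and Mitol KO replicate 3 (-0.55, adjusted p = 0.0890). In limma-voom with all libraries the adjusted p was 0.0515, the highest of 8 settings, which began at 0.00918. The direction was the same in each of these fits.

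**Figure D3:**
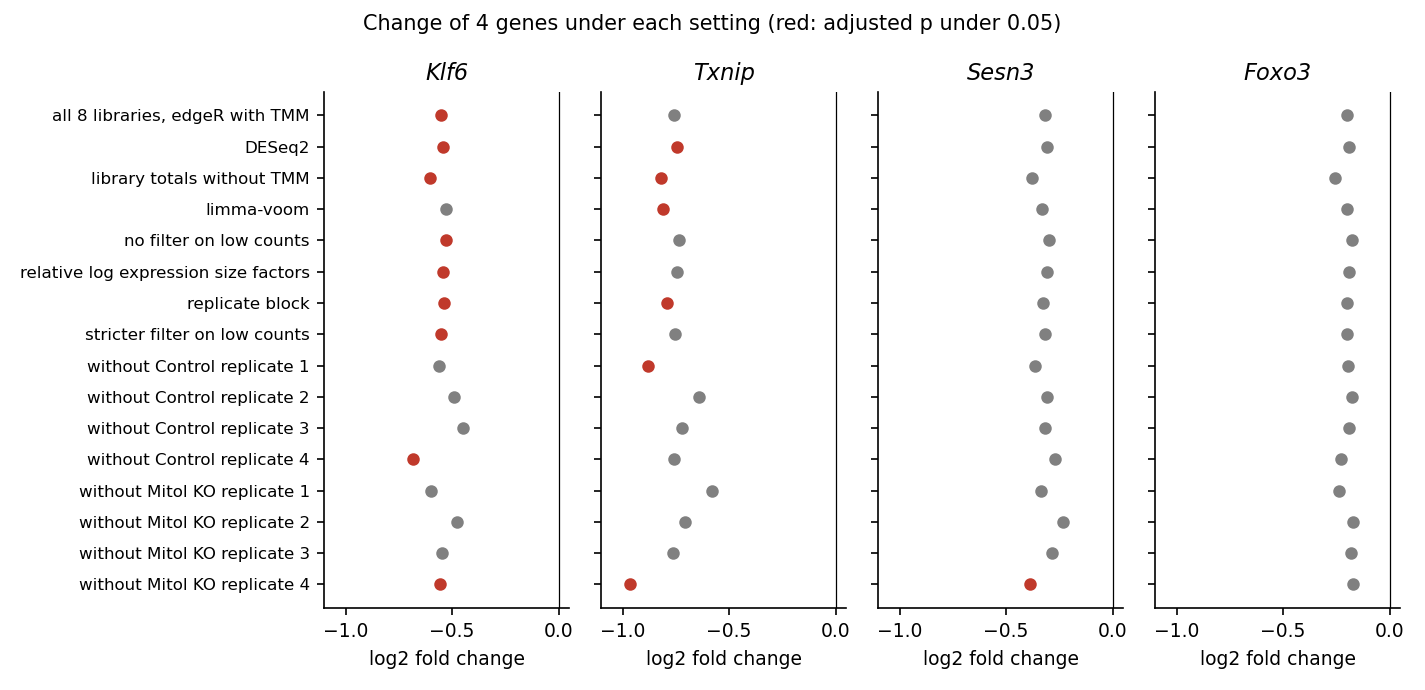
Log2 fold changes, Mitol KO over Control (x axis), of Klf6, Txnip, Sesn3 and Foxo3 under each fit (rows), where red points have an adjusted p under 0.05. All points lie below 0, and which of the 4 genes pass the threshold differs between fits.

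Klf2, which guides trafficking and quiescence of lymphocytes, lies on chromosome 8 from 73072726 to 73075502, plus strand. It had 169.1, 126.8, 260.0 and 298.4 normalized counts in Mitol KO replicates 1 to 4 and 155.6, 200.04, 259.0 and 208.3 in Control replicates 1 to 4. The Mitol KO libraries spanned the whole Control range. Klf2 had a log2 fold change of 0.03 (SE 0.25, 95% interval -0.52 to 0.58, edgeR adjusted p = 0.954; exact permutation test, p = 0.83). Its sign was negative with library totals (-0.027), limma-voom (-0.056) and the replicate number as a block (-0.012).

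Sesn3, one of the sestrins that restrain mTORC1 through the GATOR complexes, lies on chromosome 9 from 14186363 to 14244397, plus strand. Its normalized counts were 1242, 986.1, 1139 and 1402 in Mitol KO replicates 1 to 4 and 1283, 1509, 1472 and 1607 in Control replicates 1 to 4. Only Mitol KO replicate 4 was above the lowest Control library, replicate 1. The mean was 1192 ± 175 in Mitol KO and 1468 ± 136 in Control HSCs (SD, n = 4), and the log2 fold change was -0.32 (SE 0.12, 95% interval -0.57 to -0.07, edgeR adjusted p = 0.103; exact permutation test, p = 0.0571). Without Mitol KO replicate 4 it was past the threshold in edgeR (-0.39, adjusted p = 0.0325), and in the other 7 fits that left out a library it was not. Across the fits without a library the adjusted p ran from 0.0325 to 0.248.

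Pik3ip1, which encodes a membrane protein that binds and inhibits PI3K, lies on chromosome 11 from 3280401 to 3292971, plus strand. It had 878.2, 1297, 1993 and 3046 normalized counts in Mitol KO replicates 1 to 4 and 1689, 2582, 2808 and 1799 in Control replicates 1 to 4. Both the lowest and the highest of the 8 libraries were Mitol KO libraries. The coefficient of variation was 52.5% in Mitol KO and 25.2% in Control HSCs, and the difference in spread was not tested. The log2 fold change was -0.32 (SE 0.31, 95% interval -0.98 to 0.35, edgeR adjusted p = 0.550; exact permutation test, p = 0.486). It ran from -0.68 without Mitol KO replicate 4 to -0.08 without Mitol KO replicate 1.

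Irs2, the adaptor that carries insulin and IGF1 receptor signals to PI3K, lies on chromosome 8 from 11034681 to 11059499, minus strand. Its normalized counts were 570.6, 857.3, 1028 and 792.4 in Mitol KO replicates 1 to 4 and 745.1, 1024, 1006 and 406.8 in Control replicates 1 to 4. The Control range held all Mitol KO libraries but replicate 3, which was just above it. Irs2 had a log2 fold change of 0.01 (SE 0.25, 95% interval -0.53 to 0.56, edgeR adjusted p = 0.980; exact permutation test, p = 0.886), and the sign turned to -0.035 with library totals. Its relative Irs1 was near the limit of detection, with 8.61 ± 8.25 normalized counts in Mitol KO and 9.94 ± 6.82 in Control HSCs (SD, n = 4).

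Several of the 9 genes had their lowest or highest value of a group in the same library. Among Control libraries, replicate 1 was the lowest for 6 of the 9 genes, Foxo1, Foxo4, Txnip, Pik3ip1, Klf2 and Sesn3, and replicate 2 was the highest for 5, Foxo1, Foxo3, Foxo4, Txnip and Irs2. Among Mitol KO libraries, replicate 4 was the highest for 5 of the 9, Foxo1, Txnip, Pik3ip1, Klf2 and Sesn3, and replicate 2 was the lowest for 5, Foxo1, Foxo3, Klf2, Klf6 and Sesn3. Foxo3 and Klf6 were highest in Mitol KO replicate 1. The same library, Mitol KO replicate 4, had the lowest sum of 14 proliferation markers in its group, 11798 normalized counts against 24547, 25223 and 17654 in replicates 1 to 3, while Control libraries had sums of 7448 to 11157. It also had the highest neutrophil, megakaryocyte, and stromal and endothelial marker sums of the 8 libraries, with 1023, 1761 and 1675 normalized counts. Control replicate 4, the lowest of its group for Foxo3, Klf6 and Irs2, also had the lowest sum of 17 immediate early genes in its group. That sum was 24835 normalized counts there and 39719 to 46721 in the other 3 Control libraries. Among Mitol KO libraries, replicate 1 had the lowest such sum, 24956 normalized counts. Mitol KO replicate 1 was the highest of its group for Foxo3 and Klf6 and the lowest for Foxo4, Txnip, Pik3ip1 and Irs2. The part of proliferation, of other cells and of the immediate early response in the values of the 9 genes was not tested.

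Across genes, levels were compared as CPM (counts scaled to a common library total) per kilobase of exon. On this scale Txnip was the highest in Control HSCs with 222.1 ± 51.8, followed by Foxo3 with 60.8 ± 2.73, Pik3ip1 with 46.2 ± 11.4 and Klf6 with 41.1 ± 8.26 (SD, n = 4). The Control libraries of Txnip, 150.4 to 274.0, were all above those of Foxo3, 58.0 to 64.4, and the ranges of Foxo3 and Pik3ip1 did not meet either. Pik3ip1, 34.0 to 57.6, and Klf6, 30.9 to 49.0, overlapped. Foxo4 followed with 20.4 ± 3.24, and then Irs2 with 11.7 ± 4.12, Klf2 with 10.5 ± 2.22 and Sesn3 with 9.12 ± 1.13, whose ranges overlapped each other. Foxo1 was the lowest with 5.01 ± 0.876. The order of the means was the same in Mitol KO HSCs, from Txnip with 126.1 ± 42.1 to Foxo1 with 4.89 ± 0.767. With the length of the longest transcript in place of all exons, Pik3ip1 (89.0) stood above Foxo3 (71.6) and Sesn3 (17.5) above Irs2 (11.7) in Control HSCs, so these places depend on the length used. This scale uses library totals, on which the groups did not overlap for Foxo3 and Klf6 (exact permutation test, p = 0.0286 for each). On size-factor normalized counts the groups did not overlap for 15.4% of all tested genes, and no such share is given here for library totals. With library totals the median log2 fold change of all genes moved from -0.02 to -0.08.

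**Figure D4:**
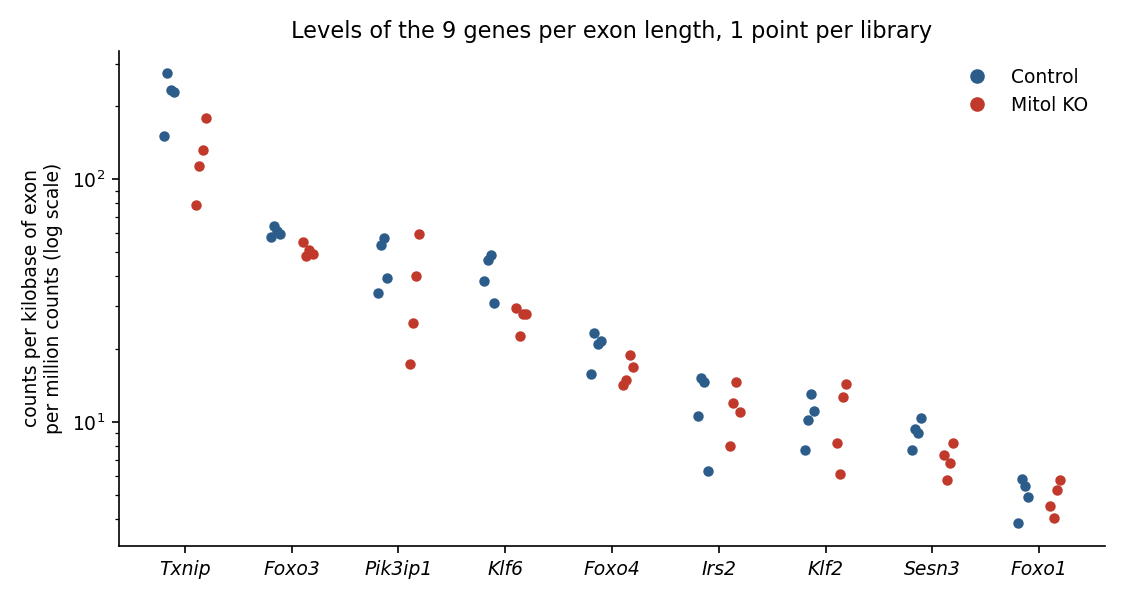
Levels of the 9 genes as CPM per kilobase of exon (y axis, log scale) in each Control (blue) and Mitol KO (red) library, ordered by the Control mean. Txnip lies highest and Foxo1 lowest in both groups.

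By likeness of profile over the 8 libraries, measured as the root mean square difference of centred log2 CPM, the genes nearest to Foxo3 among 12012 were Rfx7 (0.0423), Ppm1h (0.0453) and Bcor (0.0457), where the median gene was at 0.258. The nearest to Klf6 were Skil (0.0851), Gna15 (0.113) and Etv3 (0.120), where the median gene was at 0.418. These are descriptions of 8 points that share library and depth.

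Upstream of the FOXO proteins, the receptor gene Kit fell, and most of the cascade below it was not past the threshold. Of 38 tested genes of the PI3K and AKT arm, 0 were past the threshold and higher and 5 were past it and lower, Kit, Inpp4b and Pik3cg among them. The median log2 fold change of the 38 was -0.00037. Over all genes tested, 4.68% were past the threshold and higher and 3.75% were past it and lower. Kit, the stem cell factor receptor, had 7057 ± 1123 normalized counts in Mitol KO and 11706 ± 1511 in Control HSCs (SD, n = 4, log2 fold change -0.75, SE 0.12, edgeR adjusted p = 0.00705). All 4 Mitol KO libraries were below every Control library for Kit. Inpp4b, a phosphoinositide phosphatase, had a log2 fold change of -0.63 (edgeR adjusted p = 0.0294) and Pik3cg, the gamma catalytic subunit, one of -0.31 (edgeR adjusted p = 0.0399). Akt1 had a log2 fold change of 0.25 (95% interval 0.06 to 0.43, edgeR adjusted p = 0.0905). The count of 5 ran from 2 to 8 when a library was left out, with 2 without Control replicate 2, 3 or 4 or without Mitol KO replicate 1 or 2, 3 without Mitol KO replicate 3 and 8 without Mitol KO replicate 4.

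Among 34 other regulators of FOXO proteins, 7 were past the threshold and higher and 0 were past it and lower, with a median log2 fold change of 0.14. Background shares were 4.68% for higher and 3.75% for lower genes. Xpo1, the exportin that carries FOXO proteins out of the nucleus, rose from 1150 ± 122 normalized counts in Control to 1936 ± 424 in Mitol KO HSCs (log2 fold change 0.73, SE 0.14, edgeR adjusted p = 0.0154). The 14-3-3 genes Ywhae and Ywhah, whose products hold phosphorylated FOXO in the cytoplasm, rose by 0.50 and 0.55 on the log2 scale (edgeR adjusted p = 0.0261 and 0.0351). Foxm1, a forkhead factor of mitosis, rose by 1.26 (adjusted p = 0.0158) and the mitotic kinase Cdk1 by 1.08 (adjusted p = 0.0236), as did Ppp2ca, the PP2A catalytic subunit, by 0.38 (adjusted p = 0.0315). The deubiquitinase gene Usp7 was the seventh of them. The deacetylase gene Sirt1 had a log2 fold change of -0.01 (95% interval -0.30 to 0.27, edgeR adjusted p = 0.966). In fits without 1 library the count of 7 fell to 0 without Control replicate 2, to 2 without Control replicate 4, Mitol KO replicate 1 or Mitol KO replicate 2 and to 3 without Mitol KO replicate 3, and it rose to 11 without Mitol KO replicate 4. Cdk1 and Foxm1 belong with proliferation. All 14 proliferation markers had a log2 fold change above 0, with a median of 1.43, and 12 of them were past the threshold. That count was 4 without Control replicate 2 or Mitol KO replicate 2 and 7 without Control replicate 4 or Mitol KO replicate 1.

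**Figure D5:**
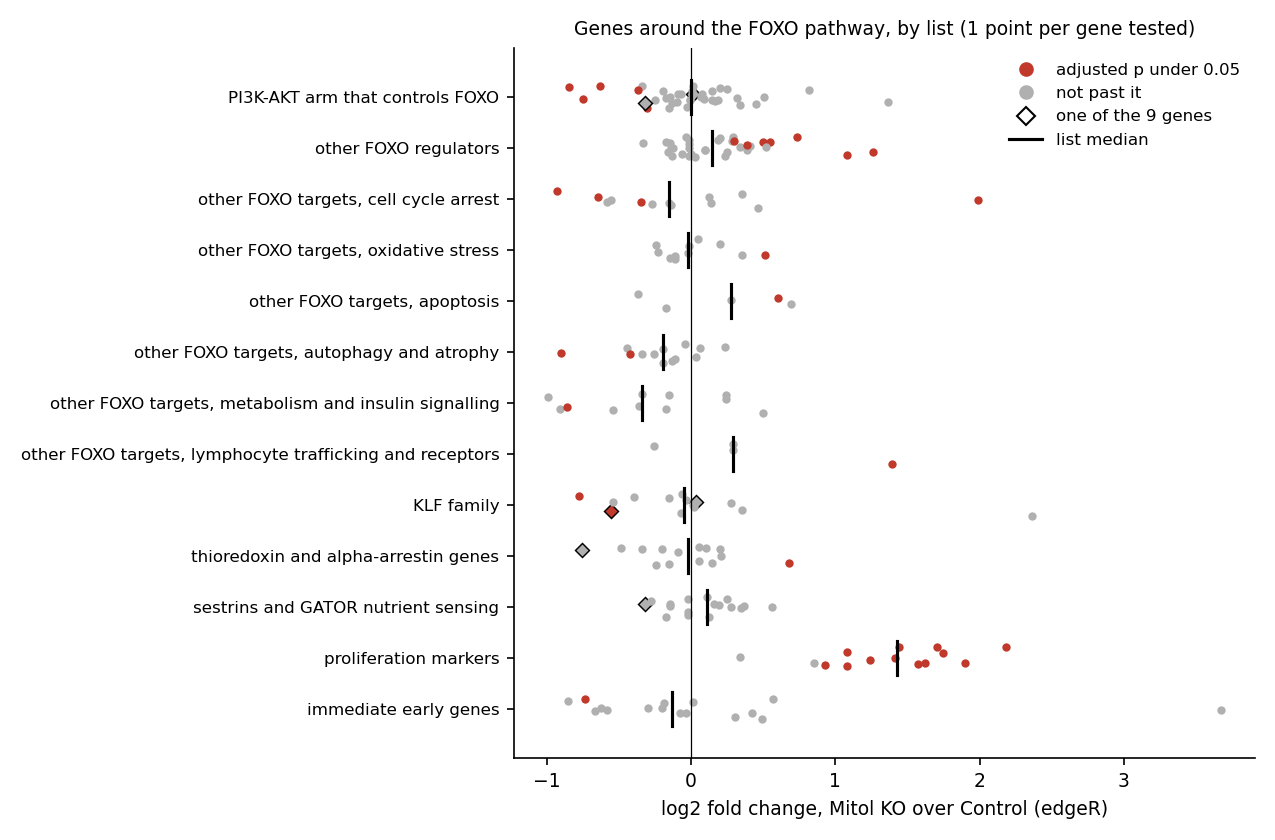
Log2 fold change, Mitol KO over Control (x axis), of every tested gene in each list (rows), with red for an adjusted p under 0.05, diamonds for the 9 genes and a black bar for the list median. Proliferation markers lie to the right with a median of 1.43, while the medians of the FOXO target lists lie between -0.34 and 0.29.

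Other targets commonly assigned to FOXO proteins moved in both directions. Of 57 tested, 4 were past the threshold and higher and 6 were past it and lower, 17.5% in all. The median log2 fold change of the 57 was -0.14, and 36 of them were below 0. Over all genes tested, 8.43% were past the threshold, 52.3% were below 0 and the median was -0.02. The 57 include Ccnd2, which FOXO proteins are known to repress, so their joint direction is not a measure of FOXO activity. The cell cycle arrest list of 13 genes also holds the cyclins Ccnd1 and Ccnd2, which are not genes of arrest. In this list Cdkn1a, the p21 inhibitor, rose from 93.0 ± 69.2 normalized counts in Control to 368.6 ± 48.4 in Mitol KO HSCs (log2 fold change 1.99, SE 0.41, edgeR adjusted p = 0.0170). Cdkn1c, the p57 inhibitor tied to HSC quiescence, fell from 127.3 ± 22.2 to 67.9 ± 16.1 (log2 fold change -0.93, SE 0.22, edgeR adjusted p = 0.0265). Rbl2, the p130 pocket protein, fell from 1078 ± 91.7 to 858.4 ± 27.5 (log2 fold change -0.35, edgeR adjusted p = 0.0356), and Ccnd2, a cyclin that FOXO proteins are known to repress, fell from 7420 ± 189 to 4800 ± 1105 (log2 fold change -0.65, edgeR adjusted p = 0.0177). In these 4 genes the groups did not overlap, as in 15.4% of all tested genes. They were named for passing the threshold in the same libraries, so this adds no support. Cdkn1b had a log2 fold change of 0.12 (95% interval -0.20 to 0.44), Ccng2 one of -0.55 (-1.15 to 0.04) and Btg1 one of -0.14 (-0.53 to 0.25).

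The antioxidant targets gave 1 call among 11, or 9.09%, close to the 8.43% over all genes tested. Of all genes tested, 4.68% were past the threshold and higher and 3.75% past it and lower. The call was Prdx3, a mitochondrial peroxiredoxin, which rose from 825.2 ± 73.9 to 1191 ± 139 normalized counts (log2 fold change 0.51, SE 0.10, edgeR adjusted p = 0.0170). Sod2, the mitochondrial superoxide dismutase, had a log2 fold change of 0.05 (95% interval -0.18 to 0.28) and Cat, catalase, one of -0.11 (-0.29 to 0.07). Among 5 tested apoptosis targets, Bcl2l11, which encodes BIM, rose by 0.61 on the log2 scale (edgeR adjusted p = 0.0212), while Bcl6 had a log2 fold change of 0.28 (95% interval -0.82 to 1.38). Of 13 autophagy and atrophy targets, 2 fell. Fbxo32, the atrogin ubiquitin ligase subunit, had a log2 fold change of -0.90 (SE 0.22, edgeR adjusted p = 0.0322), and Gabarapl1, an autophagosome protein gene, one of -0.42 (SE 0.11, edgeR adjusted p = 0.0370).

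Among 11 metabolic and insulin signalling targets 1 was past the threshold, or 9.09%, where 8.43% of all genes tested were. This gene, Lpin1, a phosphatidate phosphatase, fell from 877.3 ± 42.5 to 488.6 ± 183 normalized counts (log2 fold change -0.86, SE 0.21, edgeR adjusted p = 0.0311). The median of this list, -0.34, was the lowest of the target lists. Among 4 tested lymphocyte targets 1 was past the threshold and higher, and 0 were past it and lower. Il7r was not analysed here. When 1 library was left out, the lymphocyte list had 1 call each time, while the 4 calls of the cell cycle arrest list came to between 1 without Control replicate 2 or Mitol KO replicate 3 and 5 without Mitol KO replicate 4, with 2 without Control replicate 4 or Mitol KO replicate 1. Without Control replicate 2, the oxidative stress, apoptosis, autophagy and metabolic lists had 0 calls in edgeR. The apoptosis call was also lost without Control replicate 3, and the oxidative stress list had 2 calls without Control replicate 1. The autophagy list had 0 calls without Control replicate 1 or Mitol KO replicate 1, 2 or 3, 1 without Control replicate 3 or 4 and 4 without Mitol KO replicate 4. The metabolic list had 0 without Control replicate 3 or 4 or Mitol KO replicate 1 or 3 and 3 without Mitol KO replicate 4. With all libraries, DESeq2 gave between 1 and 4 calls in each of these target lists.

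Among the relatives of the 9 genes, 2 of 14 tested KLF genes fell, Klf12 and Klf6, itself one of the 9. Without the 9 genes, 1 of 12 tested KLF genes was past the threshold. Over all genes tested, 8.43% were past it, 4.68% higher and 3.75% lower. Klf12, a repressor of transcription, went from 428.7 ± 71.3 to 254.3 ± 25.0 normalized counts (log2 fold change -0.78, SE 0.14, edgeR adjusted p = 0.0111), and here the groups did not overlap. Klf4 had a log2 fold change of -0.39 (95% interval -0.92 to 0.13, edgeR adjusted p = 0.327). Of 14 thioredoxin and alpha-arrestin genes 1 was past the threshold, or 7.14%, below the share of all genes. It was Txn1, the thioredoxin that TXNIP binds, which rose from 522.6 ± 83.2 to 847.8 ± 219 normalized counts (log2 fold change 0.68, SE 0.17, edgeR adjusted p = 0.0345), with the groups overlapping. The arrestins nearest to Txnip, Arrdc3 and Arrdc4, had log2 fold changes of -0.09 (95% interval -0.45 to 0.26) and -0.20 (-0.78 to 0.38). In the list of 17 sestrin and GATOR genes, 0 were past the threshold in edgeR, and DESeq2 called 1, while edgeR called 2 without Mitol KO replicate 4. Sesn1 had a log2 fold change of -0.15 (95% interval -0.40 to 0.11) and Sesn2 one of -0.02 (-0.48 to 0.44). Among 16 tested immediate early genes 1 was past the threshold, or 6.25%, also below the share of all genes. This was Fosb, which fell by 0.74 on the log2 scale (edgeR adjusted p = 0.0476). When 1 library was left out, both lists had 0 calls without Control replicate 2 or 3 or Mitol KO replicate 1 or 2, and the thioredoxin list also had 0 without Control replicate 4. The immediate early list had 0 also without Mitol KO replicate 3, with relative log expression size factors and with no filter. The KLF count was 1 in fits without Control replicate 1, 2 or 3 or without Mitol KO replicate 1, 2 or 3.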

How the data were processed

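RNA from 100 sorted HSCs per library (CD150+ CD48- EPCR+ Lineage-) was sequenced as single-end reads of 75 bp. The study defined long-term HSCs as also positive for c-Kit, the product of Kit, and enriched for c-Kit before sorting them. The authors aligned reads to mm39 with STAR, merged alignments with SAMtools, used Subread to obtain counts for each gene, and deposited raw counts, 1 column per library. The gene annotation and the strand setting used are not given in the sources used here, so reads of overlapping antisense genes may not be told apart. Of 23094 rows, 1029 without a gene symbol (0.335% to 0.467% of a library's counts) were left out. The lowest row total was 11.

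The main test was edgeR (version 4.0.16, R 4.3.3; quasi-likelihood, TMM, default expression filter) with genotype as its term and Benjamini-Hochberg correction over 16444 genes at 0.05, on the counts as deposited. Normalized counts are counts divided by DESeq2 size factors. Single values were also put to an exact permutation test, 2-sided, over all 70 arrangements of the libraries. Alternatives were DESeq2 (version 1.42.0), limma-voom (limma 3.58.1), relative log expression factors, library totals without TMM, no filter, a filter at 1 CPM in 4 libraries, the replicate number as a block, and each library left out. Exon lengths, positions and promoters came from GENCODE release 39 on GRCm39, where 21434 of 22065 symbols matched.

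The 9 genes and the lists were chosen with earlier results of these data known, so nothing here is independent support. Named were the 9 genes, up to 6 genes past the threshold per list by lowest p, a set of examples such as Akt1, Sirt1 and Sod2, and the 3 genes nearest in profile to Foxo3 and Klf6. Usp7 was added after its value was seen. Some genes that this rule names are not reported here. On simulated counts of 16116 genes with 200 changed, edgeR recovered 69.0% of genes changed by 1 on the log2 scale and 95.0% of those changed by 2, with 6.29% false calls. DESeq2 recovered 77.0% and 97.0% of them, with 19.1% false calls. The shares of false calls hold for this number of changed genes and not for the data. No molecular identifiers are described, so reads may not be independent molecules, and 4 libraries of 100 cells per group limit precision.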

Additional observations from a re-analysis of the deposited data

Results flagged for a closer look

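Of 110 sets of 4 libraries checked (1 gene in 1 group), 5 had a library that stood apart from the other 3 by Dixon's criterion, and chance gives about 1 in 20. None of the 9 genes was among them. Bcl2l11 had 358.5 normalized counts in Mitol KO replicate 1, and the nearest other library of the group had 304.8. In Control replicate 3, Bub1, a mitotic checkpoint kinase gene, had 211.9 normalized counts, and the nearest had 84.4. Cat had 1393 in Control replicate 4, the lowest of its group, where the nearest had 1479. Gabarapl1 had 544.9 in Mitol KO replicate 4, and the nearest had 458.3. Sod2 had 446.3 in Control replicate 4, again the lowest of its group, where the nearest had 558.6.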

How the results depend on the processing

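The number of genes past the threshold was 1386 in edgeR (770 higher, 616 lower, 55.6% higher) and 2317 in DESeq2. With library totals in place of TMM it split into 602 higher and 829 lower (42.1% higher), and the median log2 fold change of all genes moved from -0.02 to -0.08. Leaving out 1 library gave 359 (without Control replicate 2) to 2501 genes (without Mitol KO replicate 4), with 811 and 510 without Control replicates 3 and 4 and 565, 492 and 520 without Mitol KO replicates 1 to 3. Of the 9 genes, 1 was past the threshold in the main fit, where 8.43% of all tested genes were. With DESeq2, with library totals and with the replicate block 2 were, Txnip and Klf6. The share of all tested genes was 14.1% with DESeq2, 8.7% with library totals and 10% with the replicate block. Leaving out 1 library gave 0 to 3 of the 9 genes, where 2.14% to 14.8% of all tested genes were past the threshold. In edgeR's main fit Txnip was at -0.76, and it passed with DESeq2 (-0.75), library totals (-0.82) and limma-voom (-0.81). Klf6 did not pass in limma-voom (-0.53). The sign turned for Foxo1 (-0.040), Klf2 (-0.027) and Irs2 (-0.035) with library totals, and for Klf2 with limma-voom (-0.056). The 2-sided exact permutation test gave p = 0.83 for Foxo1, 0.943 for Klf2 and 0.914 for Irs2 on CPM of library totals, where their direction turned, and 1.00 for Klf2 on the log2 scale. Without 1 library, log2 fold changes ran from -0.065 to 0.10 for Foxo1, -0.96 to -0.58 for Txnip, -0.15 to 0.22 for Klf2, -0.68 to -0.45 for Klf6, -0.20 to 0.16 for Irs2 and -0.39 to -0.23 for Sesn3. For the results that moved, the cause was not tested. Foxo3, Foxo4 and Pik3ip1 stayed below 0 and short of the threshold in every fit run.

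Whether the replicate numbers pair the libraries could not be decided from correlations this small. Deviations from the group means of same-numbered libraries correlated between -0.0695 and 0.0800. Of these 4 pairs 0 were over 0.1, but pairs with different numbers were not over it either, the highest at 0.0971. In each group, 2 of 4 libraries correlated best with their own number. With the replicate number as a block, 1652 genes were past the threshold, Txnip was at -0.79 (edgeR adjusted p = 0.0109) and Klf2 at -0.012.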
